A study of Mus musculus with 4 samples.

Results

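The stretch of mouse chromosome 15 that carries Myc and Pvt1 and matches much of the long arm of human chromosome 8 was examined in 4 liver tumours. It was taken as every array probe with its midpoint between 34 Mb and 76.8 Mb on chromosome 15 of the mm9 build, which covers 42.8 Mb. This gave 2664 of the 170305 probes on the array, and 4017 more lay elsewhere on chromosome 15. The files named 1564 of the 2664 probes (58.7%) for 213 genes, and the other probes carried no gene name. The first named gene was Mtdh and the last Zfp647, and the names in between included Ext1, Pvt1, Asap1, Ptk2 and Hsf1, which lie on human 8q. The label of the block therefore fits the gene names in the files.

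The tumours came from 4 Fah-/- Trp53-/- mice, labelled male, that lack both p53, a tumour suppressor, and fumarylacetoacetate hydrolase, which completes the breakdown of tyrosine. NTBC stops that pathway further upstream and so keeps such mice alive. The labels give its dose as 7.5 mg per L of drinking water, lowered to 2.5% of the usual dose for 6 months before the tumours were taken. Genomic DNA of each tumour (239, 240, 244 and 252, 1 tumour from each mouse) was labelled with Cy5. It was hybridised against Cy3-labelled DNA pooled from the livers of 3 sex-matched Fah+/+ Trp53+/+ littermates. Livers of the knockout mice without a tumour were not analysed here, so the comparison is of knockout tumour with wild-type liver. The sources used here do not give the age or strain of the mice, how the alleles were made, or the share of tumour cells in each sample.

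MYC is a transcription factor that drives growth, ribosome production and the cell cycle. PVT1, its neighbour, makes a long non-coding RNA that is often gained together with MYC. Gain of human 8q is among the most frequent chromosome changes in hepatocellular carcinoma, and an extra chromosome 15 is well known from mouse T-cell lymphomas. Array comparative genomic hybridisation measures DNA copy number relative to a reference, and says nothing about how strongly a gene is expressed.

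Values below are log2 ratios of tumour over pool, with each array centred on its autosomal median. In diploid cells a single-copy gain present in every cell would give 0.58. Cells with more chromosome sets, or normal cells mixed into the sample, would make that value smaller, and neither was measured. Between 99.4% and 99.5% of the block's probes were well above background in both colours on each array, none was saturated, and 1 probe had no value in tumour 239. Tumour 252 is labelled male like the pool, but its X probes had a median of 0.73 and its Y probes a median of -2.43. The other tumours had X medians of -0.09, -0.11 and -0.30 and Y medians of -0.31, -0.14 and -1.20. The comparisons over tumours, the counts of bins and genes and the list counts are given with and without it. Of the 45 named genes, some of which had no call to lose, 12 lost their call without tumour 252. Leaving out tumour 239, 240 or 244 instead cost 8, 13 and 9 calls. Precision is limited by having 4 arrays, all of which share the pool as their 1 control sample.

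Every value rests on short probes, 95.6% of them 60 bases long, and a few show how unlike 2 neighbours in one copy-number segment can read. The lowest and the highest probe named for Pvt1 and the lowest and the highest probe of the whole block are printed for this reason. All are in lower case, since no base is singled out. They are written as the scanner files give them, and the columns used here state no strand. Their mm9 positions follow each name.
Lowest Pvt1 probe, chr15:61984342-61984401: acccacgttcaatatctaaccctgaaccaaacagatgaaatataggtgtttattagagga
Highest Pvt1 probe, chr15:61971219-61971278: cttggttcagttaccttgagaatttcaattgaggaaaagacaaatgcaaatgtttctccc
Lowest block probe, chr15:62375326-62375385: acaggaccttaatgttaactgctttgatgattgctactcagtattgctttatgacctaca
Highest block probe, chr15:63898697-63898756: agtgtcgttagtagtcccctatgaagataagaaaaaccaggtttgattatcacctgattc
The lowest Pvt1 probe read 0.03, -0.49, -0.32 and -0.51 in tumours 239, 240, 244 and 252. The highest, in the same gene, read 0.56, 0.75, 1.25 and 0.87. The lowest probe of the block read -1.27, -1.66, -1.53 and -1.38, and the highest 0.86, 1.32, 1.26 and 1.41. Each of these 4 probes, chosen for its mean, stayed on 1 side of the block mean in all 4 tumours. Of the block's probes, 7 lay below -1 in every tumour and 1 lay above 1 in every tumour. The levels that follow are therefore averages over many probes.

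The block was above the autosomal median in every tumour. Its mean over probes was 0.22 in tumour 239, 0.13 in tumour 240, 0.33 in tumour 244 and 0.26 in tumour 252. The mean was 0.23 ± 0.08 (SD, n = 4), a linear ratio of 1.18, and 0.22 ± 0.10 (n = 3) without tumour 252. With this centring, tumour 244 was highest and tumour 240 lowest. If all cells were diploid, these ratios would correspond to averages of 2.33, 2.18, 2.51 and 2.40 copies per cell. Flipping the signs of the 4 values in every possible way, an exact two-sided permutation test, gave p = 0.13 (also 0.13 after adjustment over the 5 comparisons of this kind). That is the smallest value 4 tumours can give, so this design cannot reach 0.05. No other autosome had a higher mean than the block in tumours 239, 240 and 252. In tumour 244, 2 others did, with chromosome 18 highest at 0.34. When arrays were centred on the mode instead, chromosome 15 averaged 0.21, 0.16, 0.24 and 0.29 in tumours 239, 240, 244 and 252. Tumour 252 was then highest, and tumour 240 was still lowest.

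The rise showed in most single probes. In tumours 239, 240, 244 and 252, 80.2%, 66.9%, 83.8% and 77.0% of the block's probes were above 0, against 48.5% to 49.2% on the other autosomes. Of 2663 probes measured in all tumours, 1596 (59.9%) were above 0 in all 4. On the chromosomes other than 12, 15, X and Y the background was 27.3%, and on the rest of chromosome 15 the share was 64.0%. Probes below 0 in all 4 tumours made up 9.65% of the block and 27.3% of those other chromosomes.

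**Figure D1:**
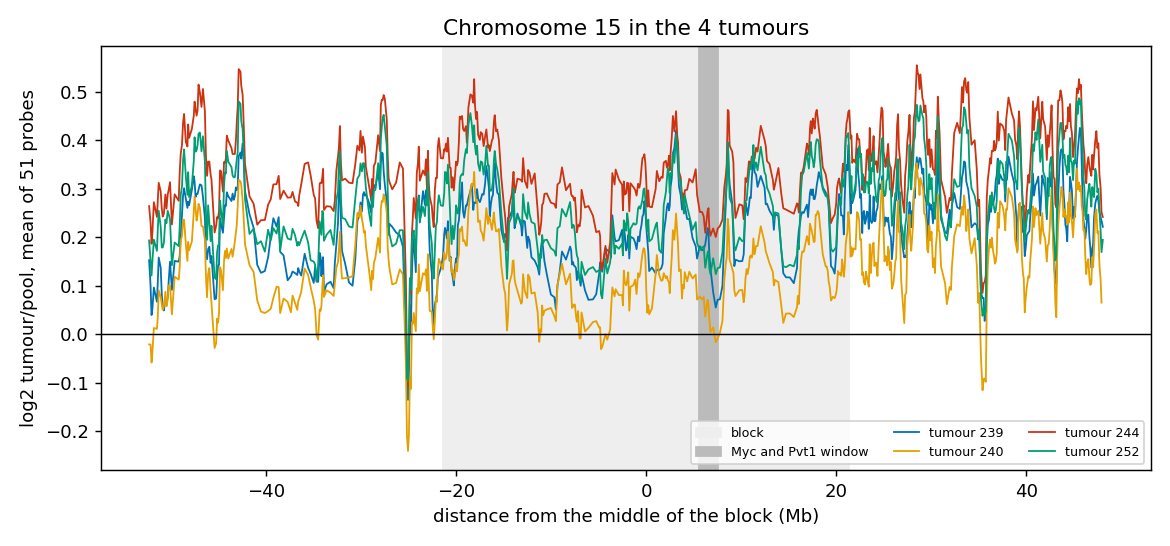
Log2 ratio of tumour over pool along chromosome 15 (y axis, mean of 51 neighbouring probes) against distance from the middle of the block in Mb (x axis), 1 line per tumour, with the block and the Myc and Pvt1 window shaded. The lines run above 0 along nearly the whole chromosome, with tumour 244 uppermost and tumour 240 lowest over most of it, and no line steps up or down at the borders of the block.

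The block was not set apart from the chromosome around it. The flank before it, 1797 probes, averaged 0.20, 0.12, 0.33 and 0.25 in tumours 239, 240, 244 and 252. The flank after it, 2220 probes, averaged 0.26, 0.19, 0.39 and 0.32. The block mean minus that of the rest of chromosome 15 was -0.012, -0.033, -0.034 and -0.030, so the block was slightly lower in 4 of 4 tumours (mean -0.03 ± 0.01, SD, n = 4, exact sign-flip p = 0.13). Without tumour 252 it was -0.026. After the normexp background correction, which starts from raw intensities, this difference was -0.0043 and below 0 in 3 of 4 tumours. Circular binary segmentation, which looks for the places where the level changes, gave chromosome 15 as 1 segment in every tumour, with means of 0.23, 0.15, 0.35 and 0.28. No breakpoint lay inside the block in any tumour. Some other settings split chromosome 15 outside the block. With normexp correction, a short segment between 30353434 and 30461588 averaged -0.91, -1.16, -0.76 and -0.97 in tumours 239, 240, 244 and 252. Tumours 239, 240 and 244 were split when segments needed at least 10 probes. With only probes well above background, tumours 239, 244 and 252 were split. At a threshold of 0.2 the block was called gained in 3 of 4 tumours, and tumour 240 was under it. In tumours 239, 240, 244 and 252, 5.15%, 0.648%, 25.0% and 4.14% of autosomal probes lay in gained segments. The call depended on the threshold: the block was gained in 4 tumours at 0.1 and in 1, tumour 244, at 0.3. With normexp correction it was gained in 2, since tumour 239 then stood at 0.19. When lone outlying probes were drawn towards their neighbours, tumour 240 split into 4 segments over the block, between 0.11 and 0.24, with 15.5% of its block probes gained.

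The Myc gene itself could not be read directly, since no probe in the files carries its name. The nearest measure is the gap between the last probe of D030024E09Rik and the first of Pvt1, where gene order places Myc. Its 10 probes, from 61627296 to 61858865, averaged 0.22 in tumour 239, 0.12 in tumour 240, 0.34 in tumour 244 and 0.21 in tumour 252 (mean 0.22 ± 0.09, SD, n = 4). Set against the block mean of the same tumour, the gap stood at 0.0025, -0.0079, 0.016 and -0.048, so it was above the block in 2 tumours and below it in the other two. Single probes of the gap ranged from -0.26 to 0.73 over the 4 tumours. Pvt1 had 23 probes, from 61872889 to 62080112. Tumours 239, 240, 244 and 252 averaged 0.25, 0.07, 0.28 and 0.21 over them (mean 0.20 ± 0.09, SD, n = 4), and limma with Benjamini-Hochberg adjustment over 18702 genes gave an adjusted p of 0.039. This call did not hold with centring on the mode (0.18, adjusted p = 0.0626), with the median over probes (0.14, adjusted p = 0.136), or with any 1 tumour left out (adjusted p = 0.0683 to 0.111). No group of neighbouring Myc or Pvt1 probes formed a segment of its own. No focal gain of the locus was thus detected at this probe spacing, a median of 11.5 kb in the block. The segmentation can miss short shifts, however. In tumours 239 and 240 it did not split off 12 probes outside the block that averaged -0.67 and -0.80. It could therefore also miss a smaller gain over the 10 probes of the gap.

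The 2 Mb around the locus were lower than the rest of the block. The window from 61 to 63 Mb held 105 probes and averaged 0.16, 0.04, 0.23 and 0.16 in tumours 239, 240, 244 and 252. The difference from the rest of the block was -0.07, -0.09, -0.10 and -0.10, below 0 in 4 of 4 tumours (mean -0.09 ± 0.02, SD, n = 4, exact sign-flip p = 0.13). It was -0.08 without tumour 252, and -0.09 for a narrower 1 Mb window. Normexp correction brought it to -0.045. The share of probes named for a gene moved with this result. It was 35.1% and 35.4% in the 2 bins of the window, against 58.7% in the block. With each bin taken relative to bins of like gene content on other autosomes, an alternative chosen after seeing the data, the difference was -0.054. That value is a mean over bins and the -0.09 is a mean over probes, so the 2 are not directly comparable. The part of gene content in the difference was not tested.

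**Figure D2:**
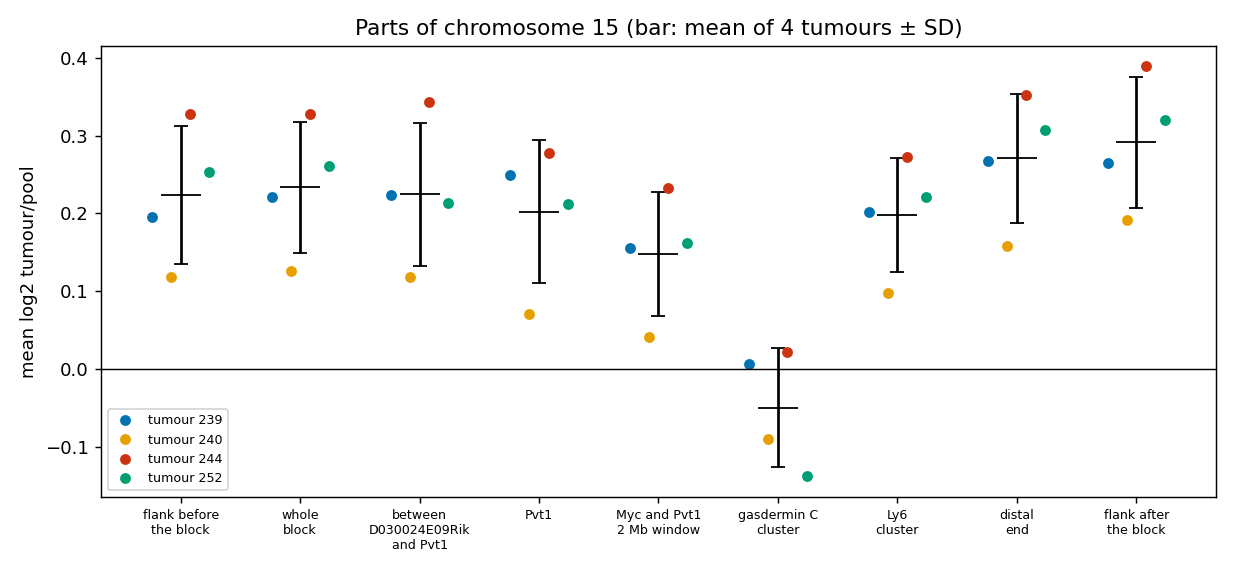
Mean log2 ratio of tumour over pool (y axis) in 9 parts of chromosome 15 (x axis), 1 point per tumour, with the mean of the 4 tumours as a bar and the SD as whiskers. The gap that holds Myc lies level with the block (0.22 against 0.23), the 2 Mb window averages 0.15, and the gasdermin C cluster, chosen after its values were seen, lies near 0.

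Genes around Myc were mostly above 0. Of the 12 genes with probes on the list of the Myc locus and its neighbours, 8 were called above 0 and none below, with a median of 0.20. Over all genes tested, 17.6% were called above 0 and 15.1% below, and over the block's genes 68.1% were called above and 2.35% below. The list count was 4 without tumour 252, and 4 with 2 called below when arrays were centred on the mode. Asap1, a regulator of ARF GTPases and the cytoskeleton, averaged 0.39, 0.19, 0.43 and 0.35 in tumours 239, 240, 244 and 252 over 30 probes (mean 0.34, adjusted p = 0.00725, limma). Cyrib, a regulator of RAC1 that the files name Fam49b, averaged 0.37, 0.24, 0.40 and 0.43 over 13 probes (mean 0.36), but 0.11 and not called with normexp correction (adjusted p = 0.165). Nsmce2, part of the SMC5/6 complex of DNA repair, averaged 0.24, 0.05, 0.27 and 0.27, and Adcy8, an adenylate cyclase, 0.26, 0.06, 0.28 and 0.19. Both lost their call with centring on the mode (adjusted p = 0.0717 and 0.0701) and with any 1 tumour left out, and Nsmce2 also with normexp correction (adjusted p = 0.0604). Tumour 240 was lowest for each of these 4 genes, as it was for the block mean.

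The 4 genes of that list that passed no test were all of the gasdermin C family, tandem copies of genes for pore-forming proteins. The 9 probes named for the cluster, from 63611555 to 63754443, averaged 0.0058, -0.09, 0.02 and -0.14 in tumours 239, 240, 244 and 252. This was 0.22, 0.22, 0.31 and 0.40 below the block mean of the same tumour, but this group was chosen after its values were seen, so it has no test. Not all 9 probes were low: that of Gsdmcl-ps, which is not on the list, read 0.53, 0.21, 0.52 and 0.40. It was called above 0 (adjusted p = 0.00564, limma), and Gsdmcl1, also not on the list, was not called (mean 0.12). Near-identical copies such as these can share probe sequence, and values for a single copy are uncertain.

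Along the block, 30 of its 43 bins of 1 Mb were called above 0 and none below (limma, adjusted p below 0.05, 2542 bins). Over all bins, 4.64% were called above and 8.50% below. On the rest of chromosome 15, 46 of 59 were called above, and on the other autosomes 42 of 2287. At an unadjusted p under 0.05 (limma), 40 of the block's bins were above 0. At that looser limit, 56 of 59 bins passed on the rest of chromosome 15. On the other autosomes 739 of 2287 passed, counting both directions. The count rested on which tumours were used: without tumour 239 it was 0 (35 unadjusted), without tumour 240 it was 11, without tumour 244 it was 32 and without tumour 252 it was 10. Without 1 tumour, 3 samples remain. In bins of 5 Mb, 5 of 8 were called. The shares over all bins given above are for bins of 1 Mb in all tumours, and are not the background of these counts. Of the 43 bins, 40 were above 0 in every tumour. The exceptions, at 45, 48 and 70 Mb, were below 0 in tumour 240 only, at -0.012, -0.00050 and -0.011.

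The highest bin, at 37 Mb, read 0.28, 0.30, 0.47 and 0.40 in tumours 239, 240, 244 and 252, a mean of 0.36. Among its genes are Grhl2, an epithelial transcription factor, and Ncald, a neuronal calcium sensor. The next were at 73 Mb (0.34), 58 Mb (0.33) and 36 Mb (0.33). The lowest bin, at 70 Mb, read 0.03, -0.011, 0.19 and 0.06, a mean of 0.07, and has no probe named for a gene. It was followed by the bins at 45 Mb (0.09), 48 Mb (0.11), 51 Mb (0.12) and 50 Mb (0.12). The bins at 61 and 62 Mb, which hold Myc and Pvt1, averaged 0.15 each and ranked 8 and 7 from the lowest of 43. Neither was called (adjusted p = 0.0743 and 0.0871, limma). In single tumours, 21, 5, 41 and 30 of the 43 bins reached 0.2.

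Gene content moved with the level of a bin. The 3 bins of the block with no probe named for a gene lay 0.18, 0.12, 0.11 and 0.15 below the chromosome 15 mean in tumours 239, 240, 244 and 252. The 17 bins with up to 50% of such probes differed from that mean by -0.02 on average, and the 23 bins with over 50% by -0.00057. On the other autosomes, relative to each one's own mean, 169 bins with none averaged -0.09, 649 with up to 50% averaged -0.03 and 1469 with over 50% averaged 0.02. The order of the classes was the same in each tumour in all 3 parts. The part of gene content in the dips of the block was not tested. The gene classes were formed after the data were seen. Probe GC moved little, with a mean of 36.8% both in the block and over all probes.

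**Figure D3:**
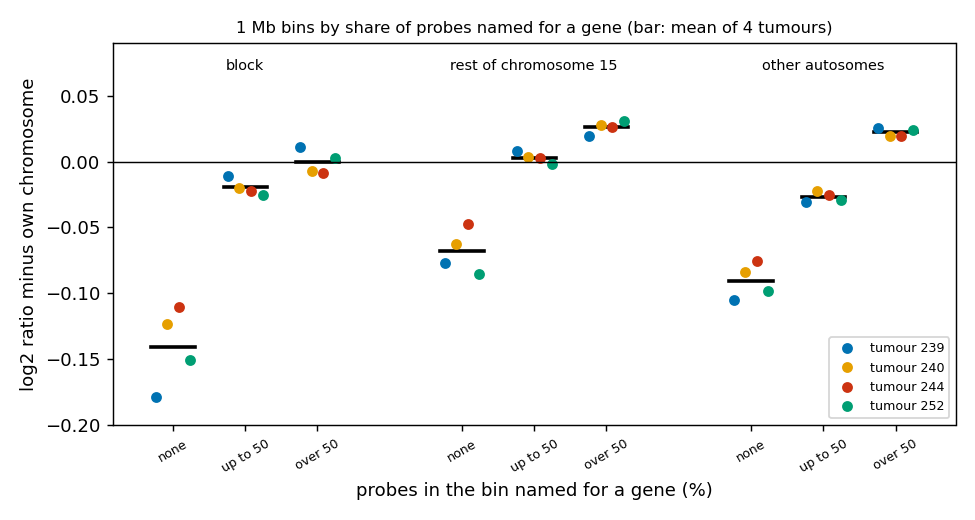
Log2 ratio of 1 Mb bins minus the mean of their own chromosome (y axis) by the percentage of their probes named for a gene (x axis), in the block, the rest of chromosome 15 and the other autosomes. Points are tumours and bars the mean of 4. In all 3 parts the bins with no named probe are lowest, at -0.14, -0.07 and -0.09.

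The dips and peaks were shared by the tumours, and much of the pattern cancelled between 2 tumours measured against the same pool. Across the 43 bins the correlation between tumours was 0.74 to 0.95, and across the 2664 probes 0.71 to 0.87. The tumours share the pool, the probes and the slide, and on the rest of chromosome 15 the bins correlated at 0.83 to 0.95. Tumour 244 exceeded tumour 240 by 0.20 on average over the bins, in 43 of 43 bins, with an SD across bins of 0.02 and a range of 0.16 to 0.25. In the Myc and Pvt1 window that difference was 0.19, and on the rest of chromosome 15 it was 0.20. So 244 was above 240 by about the same amount inside the window, in the block and outside it. Tumour 252 exceeded 240 by 0.13 in 43 of 43 bins, and 244 exceeded 252 by 0.07, also in 43 of 43. The differences that involved tumour 239 were less even: 239 exceeded 240 in 40 bins (0.10), 244 exceeded 239 in 42 (0.11), and 252 exceeded 239 in 36 (0.04). Differences of the red, tumour channel between tumours ranged from 0.02 to 0.21, and those of the green, pool channel from -0.0057 to 0.0011. The size of a difference between tumours, and for 244 and 252 its sign, depends on the centring. With arrays centred on the mode, chromosome 15 averaged 0.24 in tumour 244, 0.29 in tumour 252 and 0.16 in tumour 240. No tumour was hybridised more than once, so these differences between single tumours have no test.

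**Figure D4:**
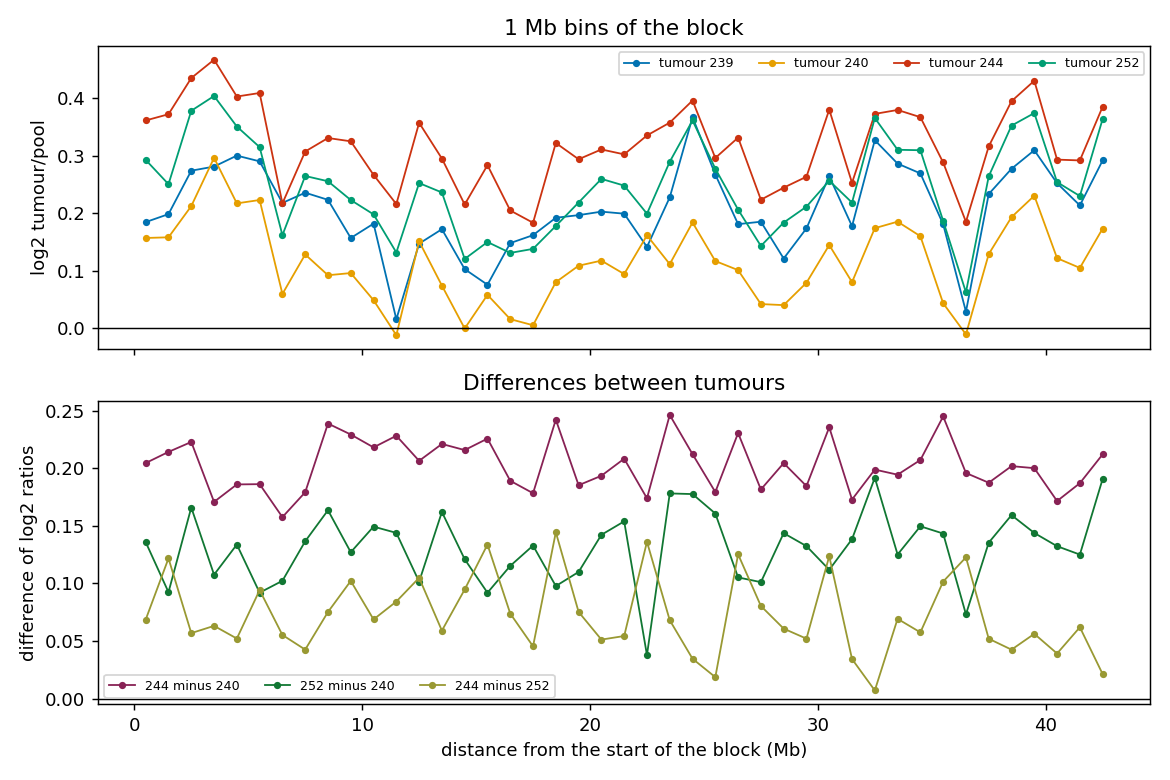
Upper panel, log2 ratio of tumour over pool (y axis) in the 43 bins of 1 Mb, by distance from the start of the block in Mb (x axis), 1 line per tumour. Lower panel, the difference between pairs of tumours in the same bins: 244 minus 240 stays between 0.16 and 0.25 while the lines of the upper panel dip and rise together.

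Of the 213 genes, 145 were called above 0 and 5 below. Over all genes 17.6% were called above and 15.1% below, and on the rest of chromosome 15 336 of 486 were above. The median over the block's genes was 0.28, against 0.02 over all genes tested. Genes with many probes are the better measured: of 42 with 10 or more probes, 31 (73.8%) were called above 0 and none below. On chromosomes other than 12 and 15, 6.26% of such genes were called above, and on the rest of chromosome 15, 51 of 64. The 5 called below 0, named after their values were seen, were Rida with 2 probes and Eny2, Pycrl, Zfp623 and Scrt1 with 1 probe each. With tests limited to genes of 3 or more probes, 93 of the block's 118 were called above 0 and none below. Of the 213, 166 (77.9%) were above 0 in all 4 tumours, against 28.7% of genes off chromosomes 12 and 15. Leaving out 1 tumour left 109 to 118 genes called above, and 110 without tumour 252. The shares over all genes given here come from the fit of every gene in all tumours. They are not the background of the counts with 3 or more probes or with 1 tumour left out.

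**Figure D5:**
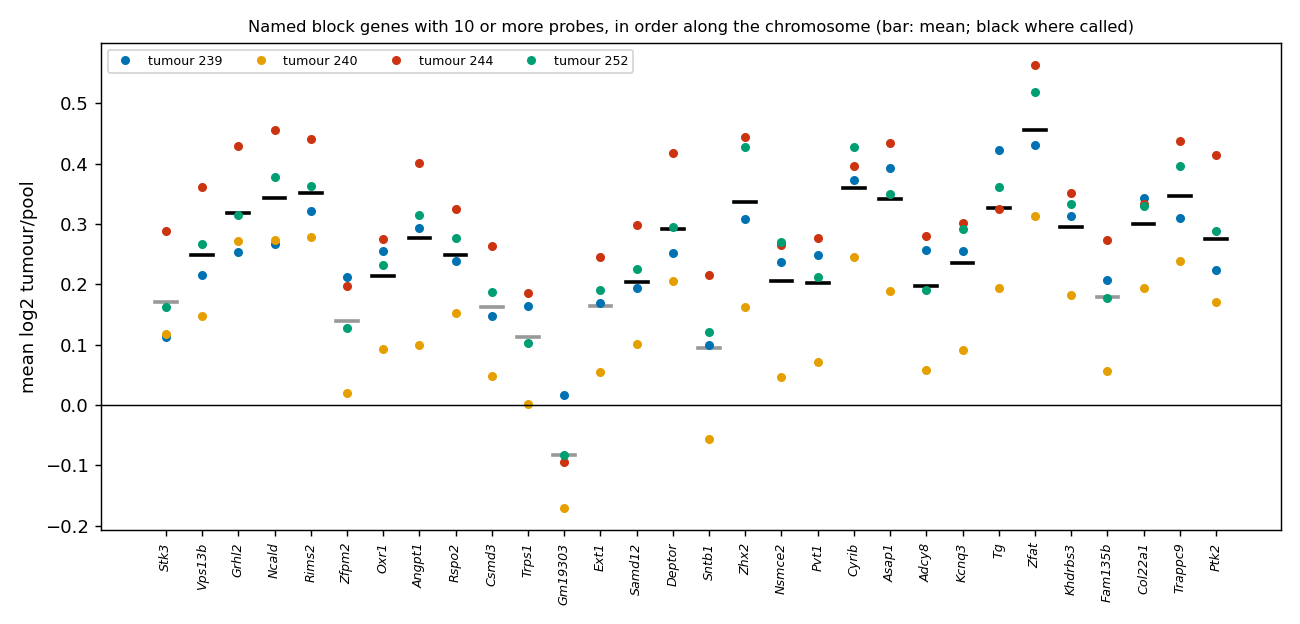
Mean log2 ratio of tumour over pool (y axis) for 30 of the block genes with 10 or more probes, those of the naming rule, in order along the chromosome (x axis), 1 point per tumour. The bar is the mean of 4 tumours, black for the 22 of them called above 0 and grey for the others. Gm19303 is the only one of the 30 with a mean below 0.

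Genes studied as cancer drivers on human 8q followed the block. Of 35 on that list, 28 were called above 0 and none below, with a median of 0.28 and a mean above 0 in all 4 tumours for 31. This is 80%, beside 68.1% of all the block's genes and 17.6% of all genes tested, and without tumour 252 the count was 21. Ptk2, which encodes focal adhesion kinase, averaged 0.22, 0.17, 0.41 and 0.29 in tumours 239, 240, 244 and 252 over 21 probes (mean 0.27, adjusted p = 0.0151, limma). Trappc9, part of a vesicle tethering complex, averaged 0.31, 0.24, 0.44 and 0.40 over 47 probes (mean 0.35). Grhl2 averaged 0.25, 0.27, 0.43 and 0.31. Rspo2, a secreted enhancer of Wnt signalling, averaged 0.24, 0.15, 0.33 and 0.28, and Angpt1, a ligand of the endothelial TIE2 receptor, 0.29, 0.10, 0.40 and 0.31. Rspo2 was not called without tumour 240 or 252 (adjusted p = 0.0502 and 0.0554), nor Angpt1 without tumour 239 or 244 (adjusted p = 0.0524 and 0.0516). Deptor, which binds and restrains mTOR, averaged 0.25, 0.21, 0.42 and 0.30. With centring on the autosomal median, tumour 244 was highest for these 6 genes, and tumour 240 lowest for 5 of them, all but Grhl2. Trps1, a GATA-type repressor, was not called, at 0.16, 0.0020, 0.18 and 0.10 over 26 probes (adjusted p = 0.179), and neither was Laptm4b, a lysosomal membrane protein, at a mean of 0.09.

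Genes that restrain growth lay on the same segment. Of 13 on the list of growth restraint and candidate suppressors, 8 were called above 0 and none below, with a median of 0.26. This is 61.5%, beside 68.1% of the block's genes and 17.6% of all genes, and without tumour 252 the count was 5. Zhx2, a repressor of fetal liver genes in the adult liver, averaged 0.31, 0.16, 0.44 and 0.43 in tumours 239, 240, 244 and 252 over 15 probes (mean 0.34, adjusted p = 0.00956, limma). Stk3, which encodes the Hippo kinase MST2, averaged 0.11, 0.12, 0.29 and 0.16 over 28 probes and was not called (adjusted p = 0.0614). It was called with normexp correction (0.30, adjusted p = 0.00717) and when tests were limited to genes of 3 or more probes (adjusted p = 0.0469). Ext1, a heparan sulphate polymerase, averaged 0.17, 0.05, 0.24 and 0.19 over 30 probes and was not called (adjusted p = 0.0676), though it was with the median over probes (0.21, adjusted p = 0.0351). Csmd3, a very large gene and the best covered of the block with 120 probes, averaged 0.15, 0.05, 0.26 and 0.19 and was not called (adjusted p = 0.0762). All 4 of these genes were above 0 in every tumour.

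Of the 15 genes on the liver metabolism list, 12 (80%) were called above 0 and 1 below, with a median of 0.33. The shares were 68.1% and 2.35% over the block's genes, and 17.6% and 15.1% over all genes tested. Without tumour 252 the counts of the list were 11 and 1. The one below was Pycrl, a proline synthesis enzyme, whose single probe read -0.64, -0.54, -0.32 and -0.19 in tumours 239, 240, 244 and 252. Slc45a4, a solute carrier, averaged 0.48, 0.29, 0.54 and 0.58 over 5 probes (mean 0.47). Tg, the thyroglobulin gene, averaged 0.42, 0.19, 0.33 and 0.36 over 20 probes (mean 0.33), and 0.20 with normexp correction. Of these 15 genes, several rest on 1 probe, and over the block genes with 1 probe 35 of 62 were called above and 4 below. Elsewhere than chromosomes 12 and 15, 22.5% of genes with 1 probe were called above 0 and 20.5% below.

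Among genes of transcription, RNA processing and protein synthesis, 8 of 14 (57.1%) were called above 0 and none below, with a median of 0.28. Over the block's genes the share was 68.1% and over all genes 17.6%, and without tumour 252 the count was 7. Eif3h, a subunit of the translation initiation factor eIF3, averaged 0.30, 0.12, 0.33 and 0.38 in tumours 239, 240, 244 and 252 (mean 0.28, adjusted p = 0.0145, limma). Of the genes of chromosome segregation, replication and repair, 8 of 10 were called above 0 and none below, with a median of 0.32, and 7 without tumour 252. The Ly6 family, tandem genes for small lipid-anchored surface proteins, is thinly covered: 2 of the 19 listed genes had a named probe, and both were called above 0, 1 of them also without tumour 252. One of them, 9030619P08Rik, read 0.07, 0.21, 0.41 and 0.28 on its single probe, which was not called without tumour 240, 244 or 252 (adjusted p = 0.104, 0.0744 and 0.0787) and averaged 0.53 with normexp correction.

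The window of the Ly6 cluster, from 74 to 75.5 Mb, held 100 probes, of which 22 carried a gene name. It averaged 0.20, 0.10, 0.27 and 0.22 in tumours 239, 240, 244 and 252. It differed from the rest of the block by -0.02, -0.03, -0.06 and -0.04 (mean -0.04 ± 0.02, SD, n = 4, exact sign-flip p = 0.13). Without tumour 252 it was -0.035. This direction turned with normexp correction, to 0.04, above 0 in 4 of 4 tumours, so neither direction is given for the cluster. The distal end as a whole, from 73 to 76.8 Mb, had 153 of 305 probes named for a gene, against 58.7% in the block. It averaged 0.27, 0.16, 0.35 and 0.31. It was above the rest of the block by 0.05, 0.04, 0.03 and 0.05 (mean 0.04 ± 0.01, SD, n = 4, exact sign-flip p = 0.13). With the median over probes in place of the mean this was 0.03, and without tumour 252 it was 0.04.

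The list of large genes, most known for roles in neurons, also holds Kcnv1 and Arc, with 1 probe each, and Kcnk9 with 2. Of its 17 genes with probes, 11 (64.7%) were called above 0 and none below, with a median of 0.21. Over the block's genes the share was 68.1% and over all genes 17.6%. The count was 5 without tumour 252, and 9 with 1 called below after normexp correction. Rims2, a presynaptic scaffold, averaged 0.32, 0.28, 0.44 and 0.36 in tumours 239, 240, 244 and 252 over 46 probes (mean 0.35, adjusted p = 0.00486, limma), and Ncald 0.27, 0.27, 0.46 and 0.38 over 41. Vps13b, a lipid transfer protein, averaged 0.22, 0.15, 0.36 and 0.27 over 60 probes, and was not called with normexp correction (adjusted p = 0.0504) or without tumour 240 or 252 (adjusted p = 0.0536 and 0.0556). Kcnq3, a potassium channel, averaged 0.25, 0.09, 0.30 and 0.29, and Samd12 0.19, 0.10, 0.30 and 0.22. Samd12 lost its call with normexp correction, with centring on the mode (adjusted p = 0.0539 and 0.055) and with any 1 tumour left out, and Kcnq3 without tumour 239, 244 or 252 (adjusted p = 0.0698, 0.0579 and 0.0843). Zfpm2, a cofactor of GATA factors on the same list, was not called, at 0.21, 0.02, 0.20 and 0.13 over 45 probes (adjusted p = 0.113), though it was with the median over probes (0.21, adjusted p = 0.0363).

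The extremes among genes with 5 or more probes are given as a description only. Highest were ENSMUST00000037086 (mean 0.48), Slc45a4 (0.47), Zfat, a zinc finger gene (0.46), Anxa13, an annexin (0.44), and Arhgap39 (0.41). Zfat, with 17 probes the best covered of these, read 0.43, 0.31, 0.56 and 0.52 in tumours 239, 240, 244 and 252. With normexp correction it fell to 0.18 and was not called (adjusted p = 0.0614), so its place among the highest does not hold there. Lowest were Gm19303 (-0.08), D030024E09Rik (0.06), Laptm4b (0.09), Sntb1, a syntrophin (0.09), and ENSMUST00000147638 (0.10). Sntb1 read 0.10, -0.06, 0.22 and 0.12 over 26 probes. Gm19303 read 0.02, -0.17, -0.09 and -0.08 over 10 probes, and turned to 0.08 with normexp correction. With that correction D030024E09Rik and Laptm4b averaged 0.17 each and ENSMUST00000147638 averaged 0.011.

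The partners and regulators of MYC outside the block were read for comparison. Of 19 with probes, 6 were called above 0 and 1 below, with a median of 0.13. Over all genes 17.6% were called above and 15.1% below. With normexp correction the list had 3 above, 6 below and a median of -0.0027, so it has no direction of its own here. Without tumour 252 it had 4 above and none below. One of the 6, Skp2, a subunit of a ubiquitin ligase, lies on chromosome 15 outside the block. Max, the obligate partner of MYC, on chromosome 12, was the one below 0, at -0.12, -0.25, -0.37 and -0.31 in tumours 239, 240, 244 and 252 (2 probes, mean -0.26, adjusted p = 0.018, limma). With normexp correction it averaged -0.10 and was not called (adjusted p = 0.211), nor was it without tumour 240 or 252 (adjusted p = 0.0762 and 0.0531). The level of chromosome 12 around Max is not given here, so Max is not set against its own chromosome. Trrap, a histone acetyltransferase cofactor that MYC recruits, averaged 0.13, 0.35, 0.46 and 0.39 over 10 probes on chromosome 5 (mean 0.33, adjusted p = 0.0109, limma), but 0.02 with normexp correction (adjusted p = 0.811), and was not called without tumour 240 (adjusted p = 0.0558). Mlxip on chromosome 5 and Mxi1 on chromosome 19, both members of the extended MYC network, averaged 0.25 and 0.24 on 7 probes each. Mxi1 averaged 0.0080 with normexp correction (adjusted p = 0.921) and was not called with centring on the mode (adjusted p = 0.0529) or without tumour 240, 244 or 252 (adjusted p = 0.0719, 0.0543 and 0.109). Mlxip was not called without tumour 239 or 240 (adjusted p = 0.0625 and 0.0792). Mxd4 and Ruvbl2 rested on 1 probe each, at 0.35 and 0.45, and Mxd4 turned to -0.17 with normexp correction and was not called with centring on the mode (adjusted p = 0.064) or without tumour 240 or 252 (adjusted p = 0.107 and 0.0544).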

How the data were processed

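Per the submitters' processing notes, Agilent Feature Extraction 12.0.0 turned the scans into signals, and positions are mm9 per the file headers. Per the file headers, that software subtracted background from each colour's intensity, detrended it and scaled the dyes by a linear factor. Raw intensity and spot flags come from the same files. The authors' deposited value table holds uncentred log10 ratios, tumour over pool. All 4 arrays were on 1 slide with 1 dye orientation. Control spots and 95 to 120 outlier spots per array were dropped, spots of a probe averaged, and log2 ratios centred on the autosomal median.

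Comparisons over tumours used exact two-sided sign-flip tests. Genes, and 1 Mb bins holding 5 probes or more, were set against 0 in limma 3.58.1 (R 4.3.3, intercept only, Benjamini-Hochberg at 0.05, tested on simulated data). Segmentation kept splits past the 99th percentile of maxima over 100 shuffles, with at least 5 probes and neighbours closer than 0.1 merged. The block's members and the 9 gene lists were chosen with earlier results of these data known. Named genes were Myc and Pvt1, at most 30 list genes with the most probes, the 5 highest and 5 lowest genes with 5 or more probes, and called genes of the MYC network; Rida, Eny2, Pycrl, Zfp623, Scrt1 and the gasdermin C cluster were chosen after their values were seen. Of the 213 gene names, a RefSeq table of GRCm38.p6, used for names and gene order only, held 186 as current symbols and 6 as older ones, and 21 kept the files' name. Alternatives covered centring, normexp (offset 50), the value table, probe filter, GC, medians, lone probes drawn in, window sizes, thresholds, robust limma and leaving out each tumour. The normexp alternative started from raw intensity, so it also left out the detrending and dye scaling of Feature Extraction. Other steps used Python 3.11.15.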

Additional observations from a re-analysis of the deposited data

Results flagged for a closer look

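Of 99 block, window, bin and gene values, 4 had 1 tumour far from the other 3 by Dixon's criterion for 4 samples, and chance gives about 1 in 20. Tumour 240 was the low one each time. It read 0.18 in the bin at 58 Mb and 0.12 in the bin at 59 Mb. It also read 0.046 for Nsmce2, which lies in the latter bin, and 0.19 for Col22a1, a collagen gene.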

How the results depend on the processing

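The 5 comparisons over tumours kept their direction under the alternatives run, except the Ly6 cluster, which turned to 0.040 with normexp correction. The block mean ranged from 0.20 without tumour 244 to 0.27 without tumour 240. The count of gained tumours moved from 3 to 1 at a threshold of 0.3. The count of called bins ranged from 0 to 32 when 1 tumour was left out, and was 5 of 8 in bins of 5 Mb. The count of called genes was 93 with 3 or more probes required, out of 118, and 109 to 118 with 1 tumour left out. Over 45 named genes and their alternatives, 515 of 581 values stayed on the same side of the threshold and of 0, 58 were no longer called, 6 became called and 2 turned: Gm19303 (0.075) and Mxd4 (-0.17), both with normexp correction. The cause of these turns was not tested. No paired analysis was possible because the 4 tumours form 1 group measured against 1 pool. With 1 dye orientation and 1 pool, an offset that all 4 arrays share at a probe cannot be told apart from copy number there.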
